A study of Mus musculus with 12 samples.

Results

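The 6 liver libraries of mice given diethylnitrosamine (DEN), out of 12 libraries in all, were regrouped in 2 arms chosen by their raw read count for Trim21, with 3 libraries under 20 counts set against 3 libraries with 20 or more. The first arm held DENKO_141 and DENKO_309, labelled TRIM21 KO, and DENHET_136, the only library labelled heterozygote (TRIM21+/-). The second arm held DENWT_307, DENWT_995 and DENWT_996, labelled wild type. A split by label, with or without a knockout allele named on it, gives the same 2 arms, so no library changed sides through its values. The arms are called below the knockout-allele libraries and the wild-type libraries. All 6 came from whole liver of male C57BL/6 mice aged 8 weeks, 48 h after 1 intraperitoneal dose of 200 mg/kg DEN. The other 6 libraries, from 3 wild-type and 3 TRIM21 KO samples injected with PBS alone, served as background. The labels do not say how the knockout allele was made, whether the groups were littermates, or that title numbers stand for different animals. The p-values below therefore reflect only how these samples vary. The regrouping asks which differences between DENKO and wild type hold when the library labelled heterozygote is counted as lacking Trim21.

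TRIM21 is a ubiquitin ligase of the tripartite-motif family that binds antibody constant regions inside cells and is itself induced by interferon. It has been tied to the p62 and KEAP1 arm of the oxidative stress response, in which the transcription factor NRF2 turns on antioxidant genes. DEN is converted by cytochrome P450 enzymes of pericentral hepatocytes into a DNA-alkylating agent, so these livers combine DNA damage, p53 target induction, loss of pericentral P450 transcripts and inflammation. PPAR-alpha, the nuclear receptor named in several results below, drives hepatic fatty acid oxidation and ketone body synthesis.

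The Trim21 counts chose the arms and are given as a description with no test. Trim21 had 3 counts in DENKO_141, 3 in DENKO_309 and 7 in DENHET_136, against 166, 113 and 225 in DENWT_307, DENWT_995 and DENWT_996. The counts nearest to the threshold were therefore 7 on its lower side and 113 on its upper side. Relative to the wild-type libraries, Trim21 stood at 4.24% in DENHET_136 (exact 95% interval 1.70% to 8.79%) and at 1.72% in the DENKO libraries pooled (0.629% to 3.78%), intervals that overlap and cover counting error only. The library labelled heterozygote thus carried Trim21 reads at the level of the libraries labelled knockout, which goes against its label. The PBS libraries labelled KO had 3, 5 and 5 Trim21 counts, and those labelled wild type had 104, 127 and 93.

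**Figure D1:**
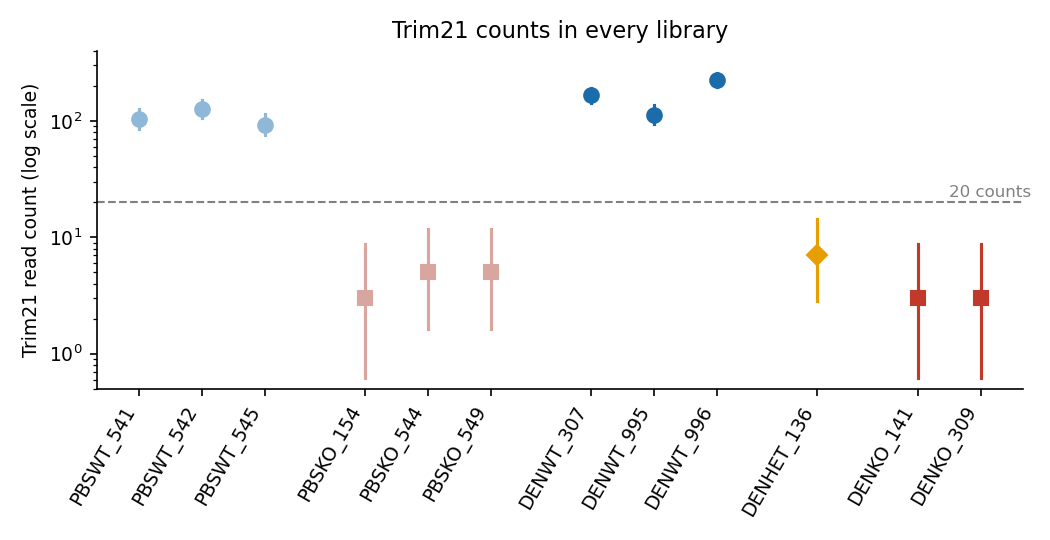
Trim21 read counts per library on a log scale, with exact 95% counting intervals as vertical lines and the threshold of 20 counts dashed. DENHET_136, at 7 counts, lies with the 5 libraries labelled KO, at 3 to 5 counts, and below the 6 wild-type libraries, at 93 to 225.

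Over all 12845 tested genes, Trim21 among them, the library labelled heterozygote lay closer to wild type than to DENKO. Its log2 CPM (read counts scaled to a common library size) correlated at r = 0.957 to 0.970 with the 3 DENWT libraries and at 0.901 and 0.918 with the DENKO libraries, across genes that are not independent replicates. The DENKO libraries correlated at 0.987 with each other. On the first principal component, which held 66.1% of the variance of the 6 DEN libraries, DENKO_141 and DENKO_309 scored 60.7 and 46.7 and the wild-type libraries -7.69, -3.98 and -35.6. DENHET_136 scored -60.1, beyond the wild-type libraries on the side away from DENKO. Reads assigned to genes numbered 18617881 to 23059252 per DEN library. Alignments tallied as non-unique came to 2.12 per gene count in DENHET_136 and to 1.42 to 1.70 in the other 5, and the part of this gap in the results was not tested.

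**Figure D2:**
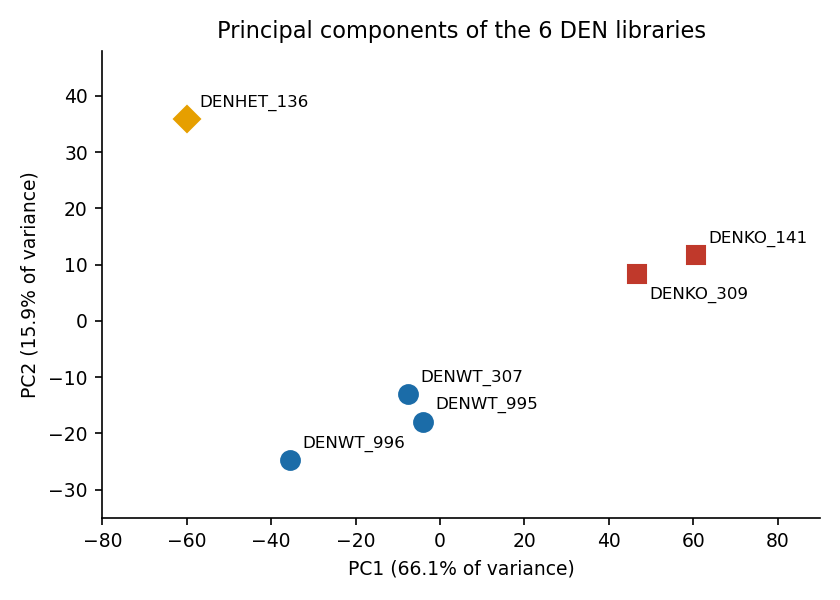
First and second principal components of log2 CPM in the 6 DEN libraries, 1 point per library. DENHET_136 lies at the left end of the first component (-60.1) and apart from the others on the second, while the DENKO libraries lie at the right end (60.7 and 46.7).

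No gene passed the edgeR test once the library labelled heterozygote was counted with DENKO. DENKO against DENWT, with 2 libraries against 3, called 2504 of 12844 genes at an adjusted p under 0.05 (19.5%; edgeR quasi-likelihood test, Benjamini-Hochberg), of which 1348 were higher (10.5%) and 1156 lower (9.0%) in DENKO. That count fell to 42 without DENKO_141, to 942 without DENKO_309 and to 1023 without DENWT_996. The 3 knockout-allele libraries against the 3 wild-type libraries called 0 genes (0.0%), with a lowest adjusted p of 0.741 in edgeR once Trim21 was left out. An unadjusted p under 0.05 was found for 830 genes (6.46%), 4.24% of all genes being higher and 2.23% lower. DESeq2 called 63 genes on the same libraries (0.491%), all of them also called by edgeR in DENKO against DENWT, and limma voom with sample quality weights called 1438 (11.2%). That last fit gave DENHET_136 a weight of 0.135, against 0.887 to 2.62 for the other 5 libraries, so it rests little on the library in question, and voom without such weights called 0. These 2 comparisons share the DENWT and the DENKO libraries and are not independent.

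The spread within the knockout-allele arm was wide. The common biological coefficient of variation was 0.396 over the 3 knockout-allele libraries, 0.153 over the DENKO libraries and 0.176 over the wild-type libraries. At the 1348 genes higher in DENKO, the median log2 fold change went from 1.01 to 0.68 when DENHET_136 was added and the median standard error from 0.22 to 0.42. At the 1156 lower genes the median went from -0.85 to -0.36, and 71 of them changed sign.

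At most of the genes called in DENKO against DENWT, the library labelled heterozygote did not lie on the DENKO side. DENHET_136 lay beyond the wild-type libraries in the direction away from DENKO at 1372 of the 2504 genes (54.8%) and within the wild-type range at 724 (28.9%). It lay between both groups at 327 (13.1%) and within or beyond the DENKO range at 81 (3.23%). Over all 12844 tested genes the same 4 shares were 43.9%, 32.7%, 5.71% and 17.7%. The called genes were chosen for DENKO values far from DENWT. That choice alone widens the place between both groups and narrows the DENKO side, so the shares of called and of all genes are not like for like. By size, DENHET_136 differed 2-fold or more from the DENWT mean at 1268 genes and from the DENKO mean at 3161, and the DENKO mean differed that much from the DENWT mean at 1392. DENHET_136 is a single library, so these counts have no replicate check.

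**Figure D3:**
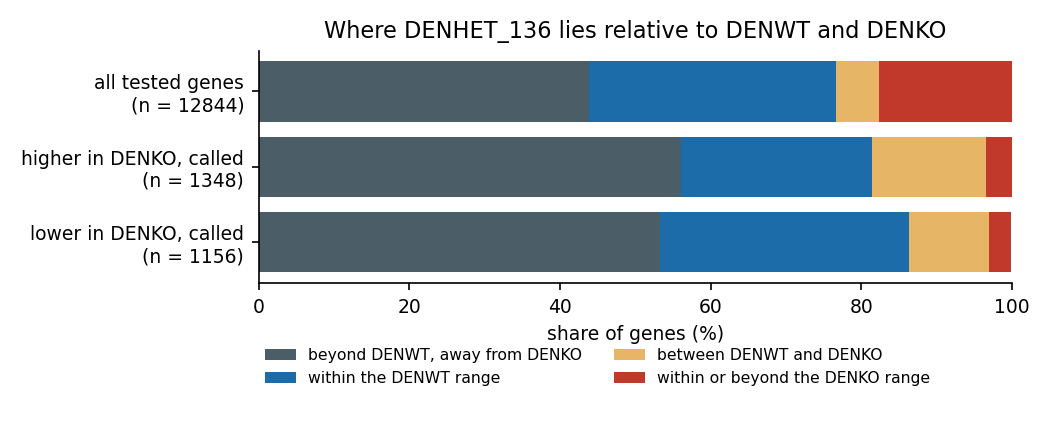
Share of genes (%) by the position of DENHET_136 relative to the 3 DENWT and 2 DENKO libraries, for all tested genes and for genes called higher or lower in DENKO against DENWT. The share within or beyond the DENKO range is 3.49% and 2.94% for the called genes and 17.7% for all genes, a difference that the choice of called genes partly sets.

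What held under the regrouping is described by the genes at which all 3 knockout-allele libraries lay beyond all 3 wild-type libraries, a measure taken up after the test had given no call. With 3 libraries against 3, some genes meet this criterion by ordering alone, so a gene that meets it need not differ between the arms. Of 12844 genes, 780 lay above in this sense (6.07%) and 777 below (6.05%). In either direction this came to 1557 genes (12.1%), and to 408 of the 2504 genes called in DENKO against DENWT (16.3%). Those calls rest on the same DENKO and DENWT libraries, so these shares are not independent. Leaving out 1 library other than DENHET_136 loosened the criterion to 986 to 1267 genes above and 969 to 1302 below, and leaving out DENHET_136 loosened it to 3657 and 3675. DENHET_136 thus joined both DENKO libraries at 780 of 3657 genes above and 777 of 3675 below. Over all genes it lay above the wild-type libraries at 32.1% and below them at 35.2%. Of 33 gene lists examined, PPAR-alpha targets had the highest share below the wild-type libraries and MHC class II genes and endoplasmic reticulum (ER) chaperones the highest shares above. These 3 lists are described first because of those counts.

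PPAR-alpha targets and fatty acid oxidation genes lay lower in the knockout-allele libraries, the library labelled heterozygote included. Of 30 members, 18 lay below all wild-type libraries, against 6.05% of all genes, and 0 above. The count was 17 or 18 under the other scalings. It was 18 to 21 without any 1 of the other 5 libraries, where 969 to 1302 of 12844 genes lay below. Without DENHET_136 it was 22, where 28.6% of all genes lay below. The median log2 fold change was -0.44 with and without DENHET_136, against 0.014 and -0.0027 over all genes. DENHET_136 alone lay below the wild-type range at 25 of the 30, against 35.2% of all genes. In DENKO against DENWT 7 of the 30 members fell, against 9.0% of all genes, and 0 rose.

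Cyp4a14, a microsomal fatty acid omega-hydroxylase and a classic PPAR-alpha target counted here among the P450 genes, had 1318, 1691 and 1980 CPM in DENKO_141, DENKO_309 and DENHET_136. It had 5919, 5118 and 4932 CPM in DENWT_307, DENWT_995 and DENWT_996, so the arms did not overlap and lay far apart. Its log2 fold change of -1.68 (SE 0.24, unadjusted p = 0.000246) had the smallest unadjusted p of all tested genes other than Trim21. The edgeR adjusted p was 0.741, and DESeq2 called it. In the PBS libraries it had 13.5 to 88.0 CPM, so all 6 DEN libraries lay above them. Cyp4a10, its close homologue, had 535, 695 and 699.5 CPM against 1425, 1704 and 1040, again with no overlap, and the 2 genes may share reads.

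Within the list, Ehhadh, the bifunctional enzyme of peroxisomal beta-oxidation, had 439.8, 492 and 374 CPM in the knockout-allele libraries and 945, 774 and 996.1 in the wild-type libraries. The lowest of the 6 was DENHET_136, and the log2 fold change was -1.06 (SE 0.21). Acot3, a peroxisomal acyl-CoA thioesterase, had 10.6, 13.7 and 8.24 CPM against 56.5, 20.4 and 46.1, with DENHET_136 again lowest. For these 2 genes and for Acot1, a cytosolic relative at 54.5, 88.6 and 43.8 CPM against 113, 111 and 143, the library labelled heterozygote was below both DENKO libraries. Acot2, the mitochondrial form, had 13.3, 25.6 and 39.7 CPM against 86.1, 50.6 and 115, also with no overlap, and the thioesterases, which lie in a family of near-identical copies, may share reads.

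Etfdh, which passes electrons from fatty acid oxidation to ubiquinone, had 244, 237 and 245 CPM against 375, 315.5 and 356, a log2 fold change of -0.53 (SE 0.17). Hadhb, a subunit of the trifunctional protein, had 31.4, 35.8 and 28.9 CPM against 53.01, 41.6 and 44.7. In both of these genes the arms did not overlap. Cpt1a, which carries fatty acids into the mitochondrial pathway, had 364, 502 and 495 CPM against 747, 561 and 548, and Slc25a20, the carnitine carrier, had 168, 202 and 197 against 281, 281 and 247.

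Not every target followed. Pdk4, which inhibits pyruvate dehydrogenase, fell in DENKO but had 151 CPM in DENHET_136, inside the wild-type range of 81.9 to 171, against 22.6 and 58.8 in DENKO. Angptl4, an inhibitor of lipoprotein lipase, likewise fell in DENKO, at 191.5 and 297 CPM, and had 507 in DENHET_136, above the wild-type range of 379 to 469.7. Creb3l3, a liver transcription factor that cooperates with PPAR-alpha, had 281 and 338 CPM in DENKO and 546 in DENHET_136, against 458, 464 and 452. Ppara itself, the receptor, had 205, 187 and 119 CPM against 189, 153.6 and 145 and overlapped. Elovl3, a fatty acid elongase outside the list, had 39.8, 24.4 and 13.3 CPM against 81.6, 62.8 and 125 with no overlap. Of 20 hepatocyte identity genes, only Alb, albumin, lay below in all 3 knockout-allele libraries (5.0%, near the 6.05% of all genes). In all 3, 0 lay above, against 6.07% of all genes. None passed the test in DENKO against DENWT, where 19.5% of all genes did.

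**Figure D4:**
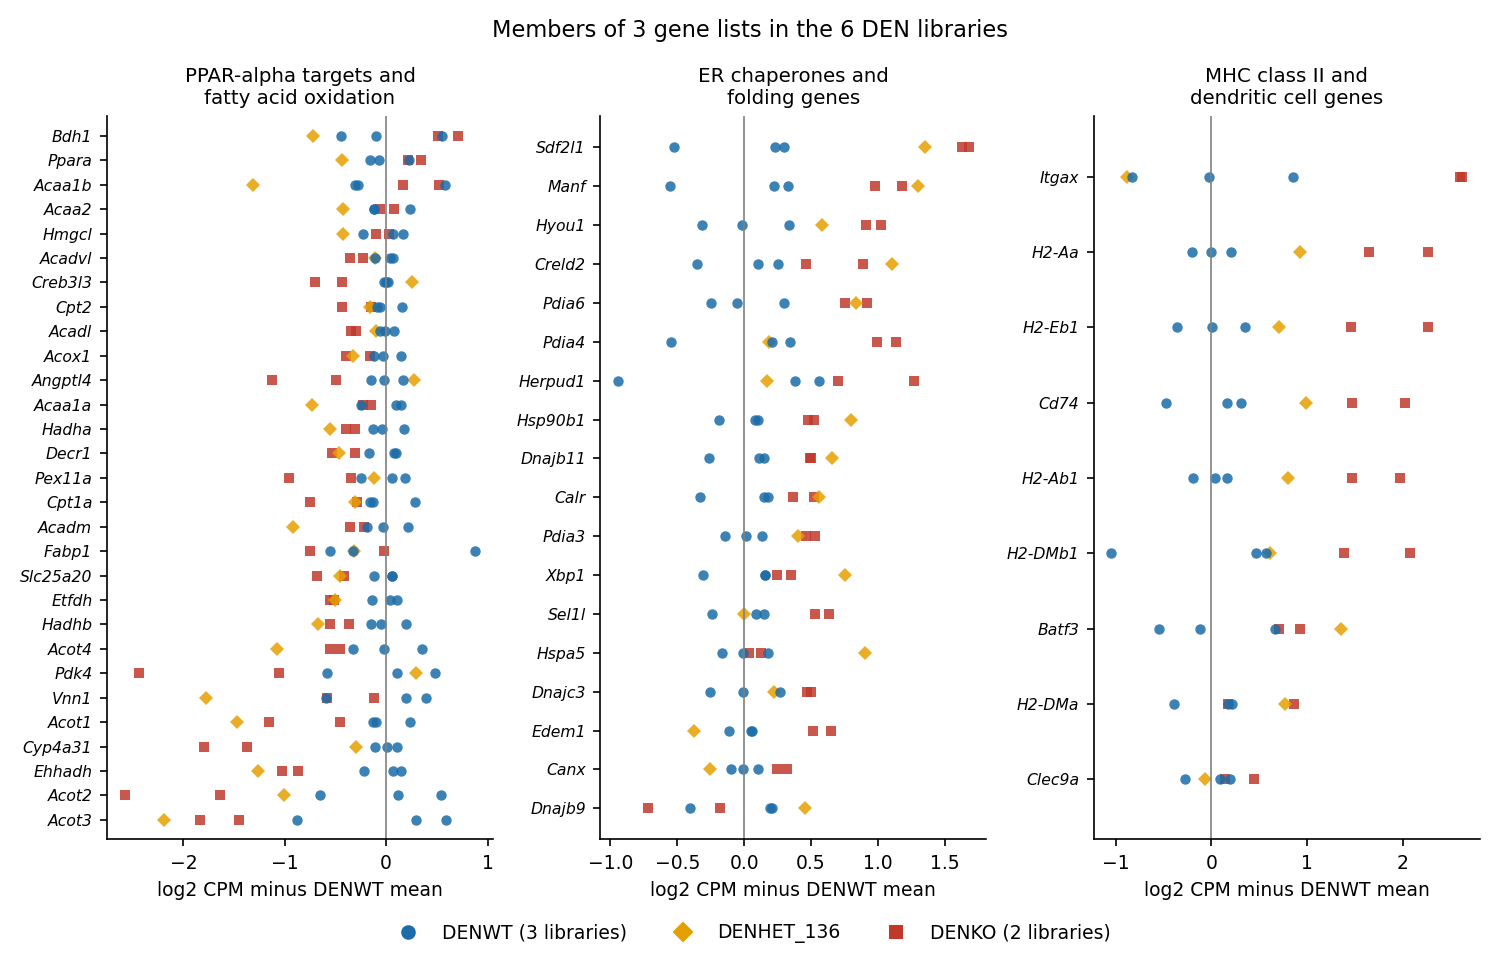
Members of 3 gene lists in the 6 DEN libraries, as log2 CPM minus the mean of the DENWT libraries, with genes ordered by the fold change between the arms. The orange diamonds of DENHET_136 fall with the red DENKO squares for 17 of the 29 PPAR-alpha targets drawn, 10 of 18 ER chaperones and 6 of 9 MHC class II and dendritic cell genes, in the sense that all 3 lie beyond the blue DENWT points.

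ER chaperones and folding genes lay higher in the knockout-allele libraries. These genes are the standard output of the unfolded protein response, in which ATF6 and XBP1 bind ER stress response elements in their promoters. Of 18 members, 10 lay above all wild-type libraries, against 6.07% of all genes, and 0 below. The count stayed at 10 under the other scalings. It was 10 to 12 without any 1 of the other 5 libraries, where 986 to 1267 of 12844 genes lay above. Without DENHET_136 it was 16, where 28.5% of all genes lay above. The median log2 fold change was 0.50 with and 0.53 without DENHET_136, and 8 members rose in DENKO against DENWT, where 10.5% of all genes did.

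Promoters are shown for an element by which genes of this kind are known, so its frequency in the list describes the list and not these libraries. The ER stress response element, searched as CCAAT, any 9 bases and CCACG, was found on either strand in the 250 bases before the start site of 7 of the 16 members with a RefSeq promoter (GRCm38.p6) and in 37 of 32851 promoters in all (0.113%). Of these 7, Hsp90b1, Calr, Pdia6 and Creld2 were among the members above all wild-type libraries, while Hspa5, Canx and Dnajc3 were not. The element is in capitals below, each promoter reading 5′ to 3′ in the direction of its gene, with coordinates of GRCm38.p6 and not of the mm9 build used for counting. Hsp90b1 holds 2 matches, 1 on each strand, and its promoter lies on the minus strand of chromosome 10.
Pdia6, chr12:17266339-17266588, plus strand: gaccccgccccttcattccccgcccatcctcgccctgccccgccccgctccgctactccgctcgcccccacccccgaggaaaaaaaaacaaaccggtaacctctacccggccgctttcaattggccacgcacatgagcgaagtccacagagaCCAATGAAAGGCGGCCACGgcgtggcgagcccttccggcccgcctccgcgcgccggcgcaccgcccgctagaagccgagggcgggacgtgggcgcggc
Creld2, chr15:88819396-88819645, plus strand: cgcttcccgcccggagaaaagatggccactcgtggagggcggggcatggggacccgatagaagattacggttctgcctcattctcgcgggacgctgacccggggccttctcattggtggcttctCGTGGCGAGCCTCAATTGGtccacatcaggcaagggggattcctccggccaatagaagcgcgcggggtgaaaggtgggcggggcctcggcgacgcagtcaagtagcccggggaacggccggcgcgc
Hsp90b1, chr10:86705445-86705694, minus strand: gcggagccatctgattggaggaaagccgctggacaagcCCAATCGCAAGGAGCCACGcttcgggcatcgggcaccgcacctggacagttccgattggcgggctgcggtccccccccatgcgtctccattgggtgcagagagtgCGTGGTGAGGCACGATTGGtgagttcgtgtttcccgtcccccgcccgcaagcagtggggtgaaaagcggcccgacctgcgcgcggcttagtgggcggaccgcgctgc

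Sdf2l1, a cofactor of the ER chaperone BiP, had 50.2, 48.6 and 40.0 CPM in DENKO_141, DENKO_309 and DENHET_136. It had 18.3, 19.2 and 10.9 CPM in the wild-type libraries, so the lowest knockout-allele library lay above the highest wild-type library by more than the range within either arm, at a log2 fold change of 1.52 (SE 0.25). Manf, a secreted protein that is retained in the ER until stress, had 122, 140.6 and 152 CPM against 77.9, 72.3 and 42.2, with DENHET_136 the highest of the 6. Pdia6, a protein disulfide isomerase, had 343.5, 306.9 and 325 CPM against 224, 175 and 153.7. DESeq2 called these 3 genes with DENHET_136 in the arm. Creld2, a further ER-resident protein, had 52.9, 70.8 and 82.3 CPM against 41.0, 45.6 and 29.9, and Hyou1, a large Hsp70-type chaperone, had 238, 220.1 and 176 against 148, 116 and 94.1.

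Hspa5, which encodes BiP, differed from this pattern. It had 1056 and 1122 CPM in DENKO, within the range of the wild-type values of 1165, 1022 and 915.5, and 1922 CPM in DENHET_136 alone. Pdia4, another disulfide isomerase, rose in DENKO to 268.5 and 243 CPM and had 139 in DENHET_136, within the wild-type range of 83.4 to 155. In the PBS libraries, which the regrouping did not use, 6 of 18 members lay higher in all 3 PBSKO than in all 3 PBSWT libraries, against 3.59% of all genes (4.44% lay lower), and 4 of these were among the 10 above: Dnajb11, Sdf2l1, Hyou1 and Creld2. Creld2 had 81.9, 65.2 and 73.2 CPM in PBSKO and 49.2, 43.6 and 42.2 in PBSWT. No ER chaperone passed the edgeR test in PBS, where Trim21 was the only gene called of 12136 (0.00824%) and 385 genes had an unadjusted p under 0.05.

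MHC class II genes lay higher in all 3 knockout-allele libraries, with the library labelled heterozygote between DENKO and wild type. These genes present antigen to CD4 T cells and are expressed mainly by dendritic cells, B cells and macrophages. Of 14 class II and dendritic cell genes 9 had enough counts to be tested, and of these 6 lay above all wild-type libraries, against 6.07% of all genes. The count was 6 or 7 without any 1 of the other 5 libraries, where 986 to 1267 of 12844 genes lay above. It was 7 without DENHET_136, where 28.5% of all genes lay above. In DENKO against DENWT 6 of the 9 rose, against 10.5% of all genes. In whole liver, more cells of a type and more RNA per cell cannot be told apart.

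H2-Aa, the alpha chain of the I-A molecule, had 31.0, 20.2 and 12.2 CPM in DENKO_141, DENKO_309 and DENHET_136 and 6.43, 7.45 and 5.61 in the wild-type libraries. The log2 fold change was 1.70 (SE 0.35), and DENHET_136 was the lowest of its arm but clear of wild type. Cd74, the invariant chain, had 55.3, 37.6 and 26.8 CPM against 16.8, 15.2 and 9.79 in the same order. H2-Ab1 had 22.9, 16.1 and 10.2 CPM against 5.97, 6.54 and 5.10. The PBS libraries held 18.9 to 33.3 CPM of H2-Aa, so the wild-type DEN libraries lay below PBS and the knockout-allele libraries lay nearer to it.

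The X box of class II promoters, searched as CNAG, NAAC and NGATG in an unbroken row on both strands in the 250 bases before the start site, occurred in 2 of the 7 list members with a promoter, H2-Eb1 and H2-DMb1, and in 34 of 32851 promoters (0.103%). The promoter of H2-Eb1, the beta chain of the I-E molecule, is given with the X box in capitals because its gene had 26.4, 15.1 and 8.93 CPM against 5.52, 6.997 and 4.28. These coordinates too are of GRCm38.p6.
H2-Eb1, chr17:34305617-34305866, plus strand: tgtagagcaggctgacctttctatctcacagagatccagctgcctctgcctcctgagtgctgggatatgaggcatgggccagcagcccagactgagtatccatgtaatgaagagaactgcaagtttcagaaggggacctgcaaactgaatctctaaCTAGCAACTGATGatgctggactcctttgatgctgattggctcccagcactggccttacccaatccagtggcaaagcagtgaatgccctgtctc
In all, 7 sequences were searched over the 3 lists after the lists had been seen to stand apart. The direct repeat of AGGTCA with 1 open base between, a PPAR-type site, was in 0 of 22 PPAR-alpha list promoters and 0.0335% of all promoters, and the same repeat of AGGNCA was in 1, that of Fabp1, and 0.338% of all. The Y box CTGATTGG was in 2 of 7 class II promoters, those of H2-Aa and H2-Eb1, and 3.83% of all, the second ER element, ATTGG, any base and CCACG, was in Herpud1 alone and 0.0304% of all, and the X box without its first base was in the same 2 promoters and 0.259% of all. A match describes letters in a window and is not evidence of binding.

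Leukocyte markers moved with the class II genes in part. Ptprc, the pan-leukocyte antigen CD45, had 12.7, 11.7 and 5.96 CPM against 6.18, 4.99 and 3.03, so DENHET_136 lay inside the wild-type range. Csf1r, the macrophage growth factor receptor, had 30.3, 28.5 and 19.3 CPM against 18.6, 13.5 and 10.7 with no overlap. Itgax, a dendritic cell integrin, had 3.71 and 3.65 CPM in DENKO and 0.326 in DENHET_136, below the wild-type values of 0.34 to 1.09. The class II and dendritic cell genes summed to 152, 102 and 66.1 CPM against 42.0, 43.5 and 31.0. Kupffer cell and macrophage markers summed to 608, 699 and 580.4 CPM against 558, 493 and 342, lymphocyte markers to 25.4, 21.4 and 10.9 against 10.4, 9.65 and 5.78. The Kupffer list had 4 of 18 members above all wild-type libraries, against 6.07% of all genes, and 10 without DENWT_307, where 1235 of 12844 genes lay above. The stellate cell and fibroblast list, which is not of leukocytes, also had 4 of 18 above and 0 below. Without DENWT_995 it had 8 above, where 1267 of 12844 genes lay above. The lymphocyte list, of whose 20 members 6 could be tested, had 0. It had 2 without DENWT_307 or DENWT_995, where 1235 and 1267 of 12844 genes lay above. DENWT_996 was lowest in all 3 sums, and the part of these markers in the class II result was not tested. Outside the lists and chosen after their values were seen, the leukocyte genes Vav1, Laptm5 and Ctss were among the 41 genes DESeq2 called higher (0.319%), with Vav1 at 4.83, 4.17 and 3.55 CPM against 1.75, 1.55 and 1.39.

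Many pericentral genes were higher in DENKO, and at 4 of them all 3 knockout-allele libraries lay above all wild-type libraries. DEN depletes these transcripts, and in DENKO against DENWT 16 of 23 pericentral genes rose, against 10.5% of all genes, and 0 fell. With DENHET_136 in the arm 4 of 23 lay above all wild-type libraries, against 6.07% of all genes. Without DENWT_995 9 did, where 1267 of 12844 genes lay above. The median log2 fold change of the list was 1.47 with and 1.745 without DENHET_136. DENHET_136 itself lay above the wild-type range at 7 of the 23 and below it at 6, against 32.1% and 35.2% of all genes. The 4 were Cyp1a2, Rgn, Cyp2c37 and Gstm3, and at each the library labelled heterozygote had the lowest value of its arm or stood level with DENKO_309. Of 36 tested P450 genes outside the zonation lists, 11 rose and 4 fell in DENKO against DENWT, where 10.5% and 9.0% of all genes did. With DENHET_136 in the arm 2 of the 36 lay above all wild-type libraries, against 6.07% of all genes, and 4 below, Cyp4a10 and Cyp4a14 among them, against 6.05%.

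Cyp1a2, a pericentral P450 enzyme, had 864, 228 and 26.4 CPM in DENKO_141, DENKO_309 and DENHET_136 and 12.3, 11.2 and 7.68 in the wild-type libraries, against 1491 to 1836 in PBS. DENHET_136 was thus clear of wild type but closer to it than to either DENKO library, and the arm spanned a wider range than the gap to wild type. The log2 fold change was 5.17 with an SE of 1.19. Rgn, the calcium-binding protein regucalcin, had 744, 411 and 66.4 CPM against 30.6, 38.6 and 36.1, and Cyp2c37, one of the Cyp2c genes that may share reads, had 74.3, 51.1 and 12.6 against 3.802, 5.72 and 3.84. Hsd3b5, a male-biased steroid dehydrogenase, had 33.5, 34.3 and 1.71 CPM against 1.17, 0.732 and 0.544. DESeq2 called all 4 of these genes.

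Other genes of the same kind were high in DENKO alone. Slco1a1, an organic anion transporter of hepatocytes, had 289.5 and 369 CPM in DENKO but 4.85 in DENHET_136, inside the wild-type values of 20.8, 16.4 and 3.71. Akr1c6, a hydroxysteroid dehydrogenase, had 1248 and 1222 CPM in DENKO, 57.8 in DENHET_136 and 130, 84.1 and 37.1 in wild type. Cyp7a1, the rate-limiting enzyme of bile acid synthesis, had 224 and 205 CPM in DENKO and 0.571 in DENHET_136, below the wild-type values of 5.85, 24.8 and 1.26. For these 3 genes the difference between DENKO and DENWT had no counterpart in the library labelled heterozygote. Slco1a1 and Akr1c6 were picked among called genes with DENHET_136 inside the wild-type range, so its place there was set by the choice.

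The antioxidant genes of the NRF2 pathway, the process to which TRIM21 has been tied, mostly overlapped wild type once DENHET_136 was counted in the arm. In DENKO against DENWT 16 of 46 NRF2 pathway genes and targets rose, against 10.5% of all genes, and 0 fell, and both DENKO libraries lay above wild type at 27 of 46, against 28.5% of all genes. With DENHET_136 in the arm 5 lay above (10.9%, against 6.07% of all genes) and 1 below (2.17%, against 6.05%). Without DENWT_995 12 lay above, where 1267 of 12844 genes did. Nqo1, a quinone reductase, had 30.4 and 21.1 CPM in DENKO and 14.9 in DENHET_136, inside the wild-type values of 14.8, 18.9 and 13.9. Gclm, the modifier subunit of glutathione synthesis, had 142 and 119.5 CPM in DENKO and 42.5 in DENHET_136, below the wild-type values of 81.5, 71.8 and 57.3. Gsta4, a glutathione transferase, was among the 5 that stayed above, at 47.7, 21.3 and 9.42 CPM against 5.26, 7.77 and 8.64. Nfe2l2, which encodes NRF2, had 150, 139 and 80.6 CPM against 102, 89.5 and 115, and Hmox1, heme oxygenase, was highest in DENHET_136 at 151 CPM against 63.4 to 86.1 in the other 5.

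At 9 interferon-stimulated genes all 3 knockout-allele libraries stayed above all wild-type libraries. In DENKO against DENWT 36 of 47 rose, against 10.5% of all genes, and 0 fell. With DENHET_136 in the arm the 9 of 47 compare with 6.07% of all genes. Without DENWT_307 the count was 19, where 1235 of 12844 genes lay above. Irf7, which amplifies the interferon response, had 67.5 and 49.5 CPM in DENKO and 15.7 in DENHET_136, at the low end of the wild-type values of 25.5, 21.0 and 15.7. Usp18, a negative regulator of interferon signalling, stayed above at 25.3, 18.9 and 18.9 CPM against 11.6, 10.4 and 11.6, and DESeq2 called it. Mx2, an antiviral GTPase, also stayed above, at 9.002, 8.34 and 9.55 CPM against 5.89, 5.08 and 5.17.

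In cholesterol synthesis 10 of 22 genes rose in DENKO against DENWT, where 10.5% of all genes did, and 0 fell. With DENHET_136 in the arm 1 lay above all wild-type libraries, a share near the 6.07% of all genes. Without DENWT_996 2 did, where 986 of 12844 genes lay above. The 1 gene was Tm7sf2, a sterol reductase, at 99.6, 75.2 and 45.3 CPM against 34.1, 33.9 and 23.6. Insig1, the sterol sensor's anchor, had 203 and 113 CPM in DENKO and 21.6 in DENHET_136, below the wild-type values of 55.4, 27.1 and 43.0. In 14 of the 22 genes DENHET_136 lay below the wild-type range, against 35.2% of all genes.

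Genes of the DNA damage response differed in part. Of 39 p53 targets, 12 fell in DENKO against DENWT, where 9.0% of all genes did, and 0 rose, and 9 lay below all wild-type libraries in all 3 knockout-allele libraries, against 6.05% of all genes. Without DENHET_136 both DENKO libraries lay below at 27, against 28.6%. Rrm2b, a ribonucleotide reductase subunit for repair, had 4.37, 5.12 and 5.10 CPM against 7.31, 7.22 and 8.19, and Ckap2, a cytoskeletal protein, had 15.3, 12.7 and 16.1 against 25.4, 18.0 and 34.2. Btg2, an antiproliferative p53 target, had 132, 205 and 288 CPM against 339, 325 and 397. Cdkn1a, the cell cycle inhibitor p21, had 735 and 693 CPM in DENKO and 1415 in DENHET_136, the highest of the 6, against 1057, 960.3 and 1275 in wild type. Gadd45a, a damage sensor, fell in DENKO to 9.74 and 10.96 CPM and had 78.8 in DENHET_136, above the wild-type values of 37.1, 28.9 and 35.8.

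Many immediate early and AP-1 genes were low in DENKO and high in the library labelled heterozygote. Of 23, 13 fell in DENKO against DENWT, where 9.0% of all genes did, and 0 rose, while DENHET_136 lay above the wild-type range at 19, against 32.1% of all genes. With both in 1 arm, 3 lay below all wild-type libraries, against 6.05% of all genes, and 1 above, against 6.07%. Fos, a subunit of AP-1, had 4.21 and 7.52 CPM in DENKO and 28.0 in DENHET_136, against 22.3, 13.3 and 25.3 in wild type. Ier2 had 20.5 and 29.8 CPM in DENKO and 84.2 in DENHET_136, against 72.7, 69.05 and 69.01. Egr1, an early growth response factor, was 1 of the 3 that lay below, at 45.4, 118.5 and 179.6 CPM against 249, 241 and 242, and Egr2 was another, at 2.24, 4.43 and 2.28 against 8.15, 6.86 and 4.73.

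Of 24 genes of the G2 phase and mitosis 16 could be tested, and 11 of the 24 were under 1 CPM in all 6 DEN libraries. All 3 knockout-allele libraries lay above at 5 (31.2%, against 6.07% of all genes), or 8 without DENKO_309, where 1069 of 12844 genes did. In DENKO against DENWT 1 of the 16 rose and 2 fell, against 10.5% and 9.0% of all genes. Without DENHET_136, 6 lay above and 4 below, against 28.5% and 28.6% of all genes. The list summed to 41.0, 36.4 and 71.7 CPM against 56.2, 49.5 and 62.4, so both DENKO sums were below wild type. Mki67, a proliferation marker, had 3.01, 1.63 and 1.18 CPM against 0.585, 0.777 and 0.204. Ccnd1, a G1 cyclin, rose in DENKO to 35.8 and 13.6 CPM, and DENHET_136 had 4.69, inside the wild-type values of 7.23, 7.5 and 3.33. Mcm7, a replication helicase subunit, fell in DENKO to 15.1 and 13.9 CPM and reached 97.3 in DENHET_136, above the wild-type values of 47.4, 26.2 and 60.5.

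Several genes set the library labelled heterozygote apart from all 5 other DEN libraries. Lcn2, the acute phase protein lipocalin 2, had 2629 CPM in DENHET_136, against 60.9 and 185 in DENKO and 460.5, 551 and 587 in wild type. DENHET_136 was thus above wild type where DENKO had fallen below it. Il1r2, the decoy receptor of interleukin 1, had 13.5 CPM against 0.425 to 1.504 in the other 5, and Lepr, the leptin receptor, 27.6 against 0.85 to 3.18. Cxcl2, a neutrophil chemokine, had 53.9 CPM against 1.89 to 9.78.

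Genes of neutrophils were high in the same library. Of 14 neutrophil and monocyte markers, DENHET_136 exceeded the DENWT mean 2-fold or more at 8, against 4.31% of all genes. It lay 2-fold or more below that mean at 1, against 5.57% of all genes. S100a8 and S100a9, the calprotectin subunits, had 19.8 and 37.5 CPM in DENHET_136, against at most 5.01 and 10.4 in the other 5 libraries. Retnlg, a neutrophil-enriched secreted protein, had 12.9 CPM against 0.232 to 2.55. The whole list, however, summed to 170.2 CPM in DENHET_136, between the DENKO values of 163 and 192 and above the wild-type values of 128, 144 and 60.5. The part of these markers in the position of DENHET_136 was not tested.

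Several genes expressed in liver lay lowest in the same library. Nlrp6, an inflammasome gene expressed in liver, had 3.30 CPM in DENHET_136, against 203 and 210.5 in DENKO and 96.5, 101 and 49.6 in wild type. Aox3, an aldehyde oxidase, had 2.77 CPM against 26.5 to 254 in the other 5, and Ces1d, a carboxylesterase, had 24.5 against 222 to 778. Adra1b, the hepatic alpha-1B adrenoceptor, had 1.31 CPM against 10.8 to 60.2. For these 4 genes the 6 PBS libraries held 213 to 304, 503 to 694, 773 to 1725 and 80.8 to 107 CPM in turn, so DENHET_136 lay farthest from PBS in each.

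**Figure D5:**
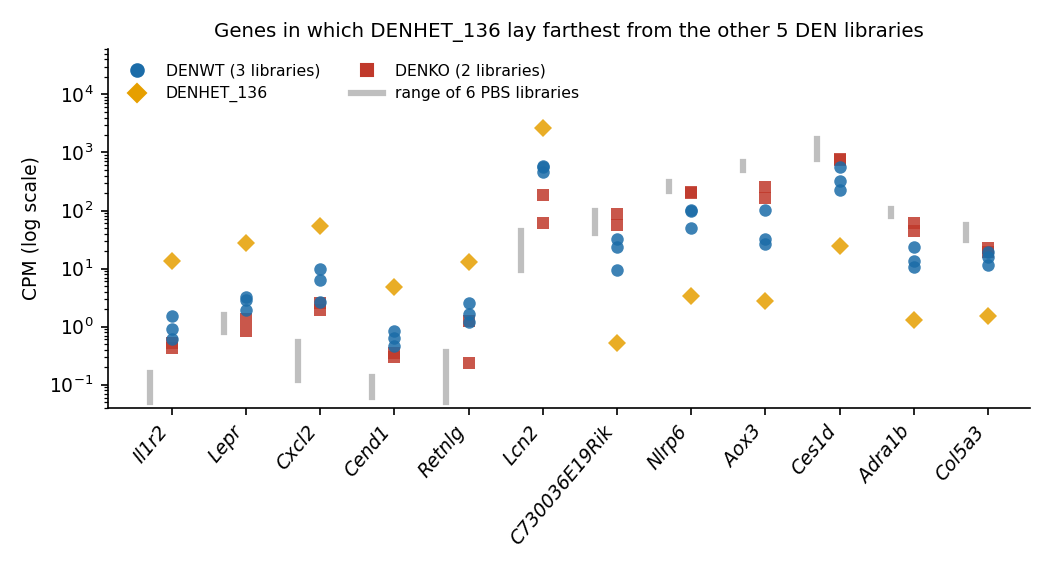
CPM on a log scale of the 12 genes in which DENHET_136 lay farthest above (6 genes) or below (6 genes) the nearest of the other 5 DEN libraries, with the range of the 6 PBS libraries as a grey bar (PBS values under 0.05 CPM are drawn at 0.05). DENHET_136 is highest for Il1r2 to Lcn2 and lowest for C730036E19Rik to Col5a3.

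Genes near Trim21 on its chromosome, which may be inherited with the allele, were described as a further group. Of 81 tested genes within 5 Mb, 11 rose and 5 fell in DENKO against DENWT, a share near the 19.5% of all genes. With DENHET_136 in the arm 5 lay above all wild-type libraries and 1 below. The share above, 6.17%, was near the 6.07% of all genes, and the share below, 1.23%, was under the 6.05%. Serpinh1, a collagen chaperone, had 15.4, 13.2 and 10.8 CPM against 8.77, 7.55 and 6.19, and Pak1, a kinase, 2.09, 2.06 and 0.857 against 0.836, 0.686 and 0.68. Trim21 had the lowest p of the PBS comparison, and no neighbour passed there.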

How the data were processed

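Whole-liver total RNA was sequenced after rRNA depletion. The authors deposited 1 table of raw read counts per gene for each library, with 22609 gene symbols, and per the submitters' processing notes bcl2fastq, TopHat2 and HTSeq were used with genome build mm9. Not given in the sources used here are tool versions, annotation and strand setting, so a gene and its antisense partner cannot be told apart, and near-identical families (Cyp2c, Cyp4a, Acot, Gstm, H2 and others) may share reads. The 5 tally lines of each file, 61.4% to 78.7% of all counts, were left out.

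From these counts, CPM and log2 fold changes were computed with edgeR 4.0.16 in R 4.3.3 (TMM scaling over 12 libraries, robust quasi-likelihood test, Benjamini-Hochberg adjustment at 0.05). The filter, filterByExpr, ran over the 6 DEN libraries for both DEN comparisons and over the 6 PBS libraries for the PBS comparison. A prior count of 2 was used for log2 CPM only. Gene totals were 17303124 to 23059252 per library. The standard error of a fold change is its size divided by the square root of F. Trim21 was left out of the DEN counts of calls because it chose the arms. Alternatives were DESeq2 1.42.0, limma 3.58.1 voom, other scalings and filters, and leaving out each library. Plain voom, other scalings of list counts, and the count of genes with all 3 libraries beyond all 3 were added after seeing the data. The fits were tested on simulated data.

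The members and the gene lists were chosen with earlier results of these data known. Genes were named by rule from a list of key genes, the genes setting DENHET_136 apart and, in each list with no call, the 2 with the smallest p. A further rule took the extremes of genes called in DENKO against DENWT at which DENHET_136 lay within the wild-type range. Further list members, the genes called by DESeq2 and the promoters were chosen after their values were seen. A few list members are counted but not reported by name here. Promoter sequences are from RefSeq, build GRCm38.p6.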

Additional observations from a re-analysis of the deposited data

Results flagged for a closer look

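Slc25a20, the mitochondrial carnitine and acylcarnitine carrier, lay lower in all 3 knockout-allele libraries than in all 3 wild-type libraries after DEN, at a log2 fold change of -0.51, and higher in all 3 PBSKO than in all 3 PBSWT libraries, at 0.17. The difference between these effects was not tested, and Slc25a20 passed the edgeR test in neither comparison.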

How the results depend on the processing

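With DENHET_136 in the knockout arm the count of called genes was 0 in every edgeR setting and in voom without weights, 63 by DESeq2 and 1438 by voom with quality weights, and leaving out 1 library each gave 0 to 2504, the last without DENHET_136. DENKO against DENWT gave 42 to 2699 when 1 library was left out. The PBS comparison gave 1 call, 3 by DESeq2, and 1 to 1 when 1 library was left out. The genes called in both DEN comparisons numbered 0, 63 by DESeq2, 1405 by voom with quality weights, and 0 to 0 with 1 library left out. Of 86 named genes, 20 passed the threshold by DESeq2 and 48 by voom with quality weights, and none changed direction under DESeq2, the other scalings, the filter or the spread estimate.

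Log2 fold changes of the regrouped comparison changed direction as follows, and the cause was not tested. With quality weights they were -1.77 for Lcn2, -0.96 for Il1r2, -1.05 for Lepr, -1.25 for Cxcl2, -1.18 for Retnlg, -0.41 for S100a8, -0.53 for S100a9 and 0.24 for Col5a3. With plain voom they were -0.77 for Lcn2, -0.12 for Retnlg, -0.60 for Nlrp6, -0.52 for Ces1d and -0.45 for C730036E19Rik. Leaving out 1 library each gave -2.12 to 1.40 for Lcn2, -1.08 to 2.79 for Il1r2, -1.28 to 2.45 for Lepr, -1.49 to 2.18 for Cxcl2, -1.29 to 1.98 for Retnlg, -0.56 to 1.93 for S100a8, -0.66 to 1.69 for S100a9, -0.59 to 0.42 for Col5a3, -1.63 to 0.33 for Mcm7, -1.71 to 0.41 for Gadd45a, -0.084 to 0.27 for Ppara and -0.73 to 0.10 for Fabp1.

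No paired analysis was possible because no title number occurs in more than 1 group. The heterozygote label is on 1 library, so its position has no replicate, and with 2 DENKO libraries the calls depend on each of them. Counts of a few reads, as for Trim21 in the knockout-allele libraries, set wide intervals.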
